A study of Mus musculus with 8 samples.

Results

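The mitochondrial ribosomal proteins were taken as every gene of the count table whose symbol begins with Mrpl or Mrps followed by a digit, which gave 78 of 24746 genes. Of these, 49 carry a large subunit symbol (Mrpl) and 29 a small subunit symbol (Mrps). RNA-seq was performed on pro-B cells sorted from the bone marrow of C57BL/6 mice aged 10 to 12 weeks. The double knockout (DKO) group held 4 animals of the genotype miR-15a/b fl/fl Vav-Cre. Their alleles of the clusters miR-15a/16-1, in an intron of Dleu2, and miR-15b/16-2, in an intron of Smc4, are flanked by loxP sites. The control group held 4 animals of the genotype miR-15a/b +/+ Vav-Cre, so that the Vav-Cre transgene was present in all 8 animals. Vav-Cre acts across the blood lineages and not in B cells alone, and the floxed alleles were made in embryonic stem cells of mixed C57BL/6 and 129/Sv origin before backcrossing. The comparison asks how the transcripts of this gene family differ in pro-B cells without both clusters.

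The mitochondrial ribosome translates the few proteins that are still encoded in mitochondrial DNA, all of them core parts of the respiratory chain or the ATP synthase. Its RNAs come from the mitochondrial genome, whereas every protein of its small and large subunit is encoded in the nucleus, made in the cytosol and imported. Many subunits descend from bacterial ribosomal proteins, and others were added later and are found in mitochondria only. Mitochondrial mass is known to grow when lymphocytes are activated to divide.

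Members of the deleted miR-15 family share a seed, the bases with which a miRNA pairs to its target, and the mature sequences are shown to let the seed be compared with sites in the gene family. They are given from RefSeq (GRCm38.p6) with bases 2 to 8 in capitals, miR-15a-5p from chromosome 14, miR-15b-5p from chromosome 3, and miR-16-5p encoded in both clusters.
mmu-miR-15a-5p: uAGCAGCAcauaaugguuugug
mmu-miR-15b-5p: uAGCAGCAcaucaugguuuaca
mmu-miR-16-5p: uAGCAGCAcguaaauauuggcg
All 3 sequences carry the seed AGCAGCA.

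In the longest 3' UTR of each gene annotated in GENCODE M21 (GRCm38), 14 of the 78 members held a match to that seed. The best match was an 8mer in 3 members (Mrps6, Mrps25 and Mrpl3), a 7mer-m8 in 9 members and a 7mer-A1 in 2 members. No match was present in 64 members, or 82.1%, against 72.1% of 11810 tested genes with an annotated 3' UTR. The median 3' UTR searched measured 388.5 bases in the members and 1134.5 bases in all these genes. The 14 members held 16 sites of their best class. The site nearest the stop codon was placed for each member, which put it inside exons used for the deposited counts in 9 members and outside them in 5, Mrpl3 with its 8mer among these. Windows around the sites of Mrps6, Mrps25 and Mrpl24 are shown because these members recur in the comparison of genotypes, with the bases that match the seed in capitals. The Mrps6 window lies at chr16:92111965-92111994 (plus strand), the Mrps25 window at chr6:92172194-92172223 (minus strand) and the Mrpl24 window at chr3:87923347-87923376 (plus strand), all in the 3' UTR.
Mrps6: ggcactatgggTGCTGCTAggttgttgtct
Mrps25: tactgttaggtTGCTGCTAagacaatagcc
Mrpl24: gcctcagagTGCTGCTtctgcctgtccagt
A match describes these letters and is no evidence of binding.

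Promoters of nuclear genes for mitochondria often hold motifs of nuclear respiratory factor 1 (NRF1), of ETS factors such as GABP, or of YY1. RefSeq promoter windows of 300 bases, with 250 before and 50 after the start, were matched for 69 of the 78 members and searched on both strands. The NRF1 motif, GCGC and TGCGC separated by any base, was present in 13 members (18.8%, against 10.8% of 9959 tested genes), and the ETS motif CCGGAAGT in 11 (15.9%, against 8.72%). The YY1 motif AAGATGGCG was present in 8 members (11.6%, against 3.28%). In all, 30 members (43.5%) held at least 1 of these 3 motifs, against 21.2% of the genes searched, and 2 members held more than 1. The other motifs searched were CCAAT, found in 39.1% of the member promoters and 39.3% of all, CACGTG in 7.25% and 10.2%, and TATAAA in 5.80% and 7.13%. The windows of 4 members named in the comparison are printed with the motif in capitals (GRCm38.p6). They lie at chr1:42851218-42851247 (plus strand) for Mrps9, chr3:94443298-94443327 (plus strand) for Mrpl9, chr5:31613938-31613967 (plus strand) for Mrpl33 and chr6:71823742-71823771 (minus strand) for Mrpl35.
Mrps9, NRF1 motif: tgggaggtctGCGCCTGCGCagtctccagg
Mrpl9, NRF1 motif: aggcgcagctGCGCATGCGCggggtccttc
Mrpl33, ETS motif: cgcgcatgccCCGGAAGTagtcgttgagct
Mrpl35, YY1 motif: ggcaggctgcAAGATGGCGgcttccatctt
These matches are descriptions of the windows and not of bound factors. The members were spread over 17 chromosomes, with 11 on chromosome 11. Mrpl46 and Mrps11 formed the only pair of members next to each other, on opposite strands with 42 bases between their starts.

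The libraries held 38073065 to 43288133 counts in DKO mice and 38257907 to 41530921 counts in control mice, and replicates of each genotype differed beyond sampling noise. Mir16-1 had no read in any DKO library, against 5, 1, 2 and 4 reads in control mice 1 to 4. Mir15a and Mir16-2 had 1 read each, both in control mouse 3, and Mir15b had no read in any library. Reads of Mir15a, Mir15b and Mir16-2 were thus too few in control mice to compare the genotypes. All 11 pro-B markers were detected in every library. They summed to 29967 to 33591 CPM (counts-per-million on TMM-scaled library sizes) in DKO and 27929 to 31664 CPM in control mice. Most of this sum came from Igll1, Vpreb1, Cd79a and Dntt, whereas Pax5 reached 10.9 to 16.8 CPM over all mice. Il7r was present at 427 to 488 CPM in DKO mice and 193 to 284 CPM in control mice, without overlap. Kit, a receptor of early progenitors, was present at 34.5 to 54.6 CPM in DKO mice and 13.0 to 24.3 CPM in control mice. Markers of other cells were also detected. The 7 neutrophil markers summed to 309, 608, 2215 and 1790.1 CPM in DKO mice 1 to 4, against 2574, 419, 519 and 2801 CPM in control mice 1 to 4. The 9 macrophage markers summed to 291 to 737 CPM in DKO and 414 to 1011 CPM in control mice, most of it from Lyz2, which neutrophils express as well. The other 8 macrophage markers summed to 15.5, 11.1, 36.6 and 40.2 CPM in DKO mice 1 to 4, against 39.4, 112, 37.2 and 51.5 CPM in control mice 1 to 4. They were highest in control mouse 2. The 5 markers of pre-B and later B cells summed to 91.5, 55.6, 77.8 and 90.7 CPM in DKO mice 1 to 4, against 209, 270.3, 71.8 and 282 CPM in control mice 1 to 4. Control mouse 3 lay among the DKO mice. Of these 5 genes 3 were lower in DKO mice, against 1.93% of all tested genes (Cd74, adjusted p = 0.0477, H2-Eb1, adjusted p = 0.0423, and Fcer2a, adjusted p = 0.0144, by edgeR). Fcer2a was near the floor, with 0.19 to 0.38 CPM in DKO mice and 0.63 to 3.76 CPM in control mice. Most of the sum came from Cd74 and H2-Eb1 in every mouse. Il2ra encodes CD25, by which the paper gates pre-B cells. Its levels overlapped, with 1.26 to 2.68 CPM in DKO mice and 1.25 to 2.22 CPM in control mice. Whether the number of pre-B cells differed was not tested. Nor was the part of any of these other cells in the levels of the members. The 6 T and NK cell markers reached at most 66.1 CPM in DKO and 77.1 CPM in control mice, and of the 6 erythroid markers the 3 globin genes were listed at 0 throughout. In bulk samples of this kind, a change in the number of contributing cells and in RNA per cell cannot be told apart.

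All 78 members passed the filter on low counts in these cells, and the lowest count of any member in any library was 965. Per kilobase of exon, the median member reached 85.6 CPM over the 8 mice, against 6.23 CPM for all 12714 tested genes, and all 78 members lay above the median of the tested genes. The level per kilobase varied 45.3-fold among the members. Mrpl42, a large subunit protein found in mitochondria only, stood highest with a mean of 486 CPM per kilobase in DKO and 504 in control mice. It was followed by Mrps18c, the member closest to bacterial protein S18, with 453 in DKO and 425 in control mice, and by Mrps21, a small subunit protein with a bacterial homolog, with 421 in DKO and 450.3 in control mice. In DKO mice Mrps18c ranged between 417 and 483 CPM per kilobase and Mrps21 between 397 and 444, so that the order of these neighbours was within their spread. The lowest levels per kilobase were those of Mrpl1, a protein of the stalk where tRNAs leave, with 13.7 in DKO and 15.3 in control mice, Mrpl19 with 13.1 in DKO and 12.9 in control mice, and Mrps25 with 11.7 in DKO and 10.2 in control mice. The counted exons of these members are long, with 4188 bases for Mrpl1, 5000 for Mrpl19 and 6065 for Mrps25. In Mrps25, 58.3% of the exon bases are shared with Nr2c2 on the opposite strand.

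**Figure D1:**
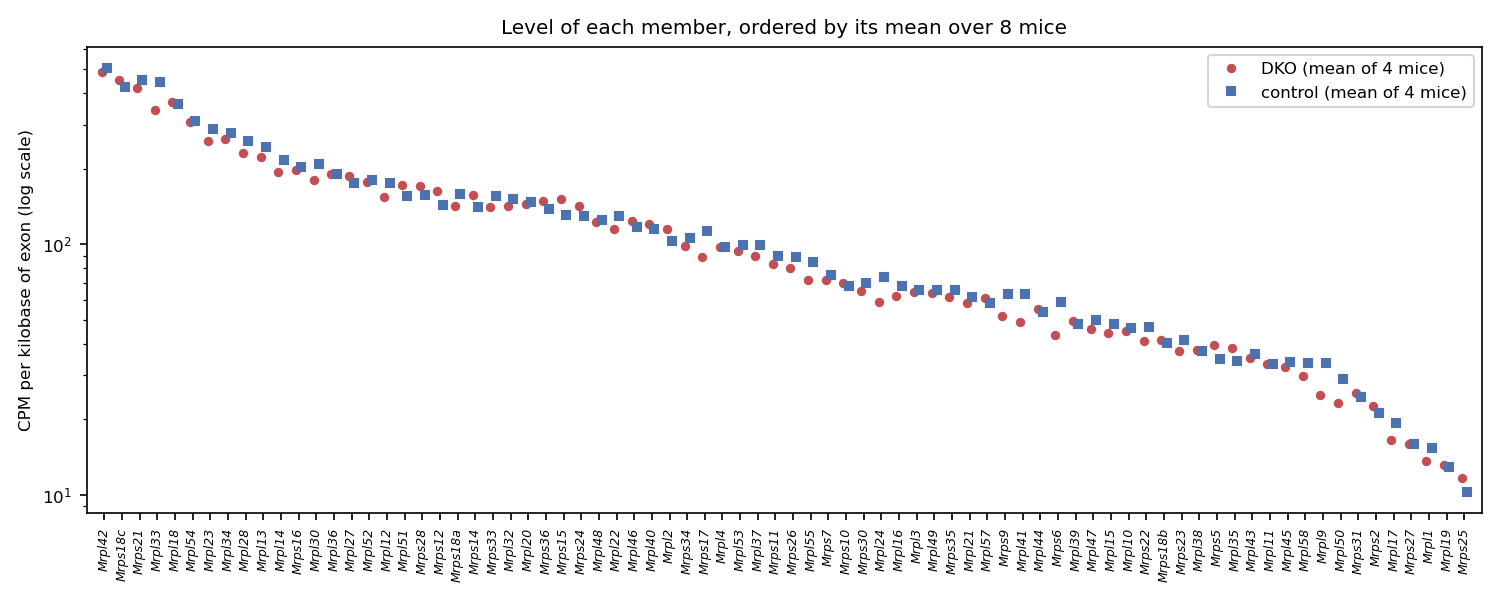
Level of each of the 78 members in CPM per kilobase of exon on a log axis, as the mean of 4 DKO mice (red circles) and of 4 control mice (blue squares), ordered by the mean over 8 mice. Levels fall 45.3-fold between Mrpl42 and Mrps25, and the symbols of the 2 genotypes lie close together for most members.

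No member passed the test between genotypes. In the quasi-likelihood test of edgeR, with p-values adjusted after Benjamini and Hochberg over 12714 genes and a threshold of 0.05, 0 of 78 members were higher in DKO mice, against 2.65% of all tested genes, and 0 were lower, against 1.93%. In either direction 4.58% of all genes passed. At an unadjusted p below 0.05, 1 member was higher (10.3% of all genes) and 5 were lower (9.86% of all genes). Every DKO library lay above every control library for 2 members (7.63% of all genes), and every DKO library lay below every control library for 3 members (6.21% of all genes). The log2 fold change of DKO over control ranged between -0.45 and 0.21 with a median of -0.06, against a median of -0.01 over all genes, and was above 0 for 27 members and below 0 for 51.

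The size of change that the data leave possible was narrow for most of the family. The 95% interval of the log2 fold change lay within 0.5 of 0 for 67 of the 78 members and within 1 of 0 for all 78. The lowest bound of any member was -0.83 (Mrpl41) and the highest was 0.42 (Mrpl51). The estimate itself was under 0.2 in size for 66 members and over 0.3 for 7.

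**Figure D2:**
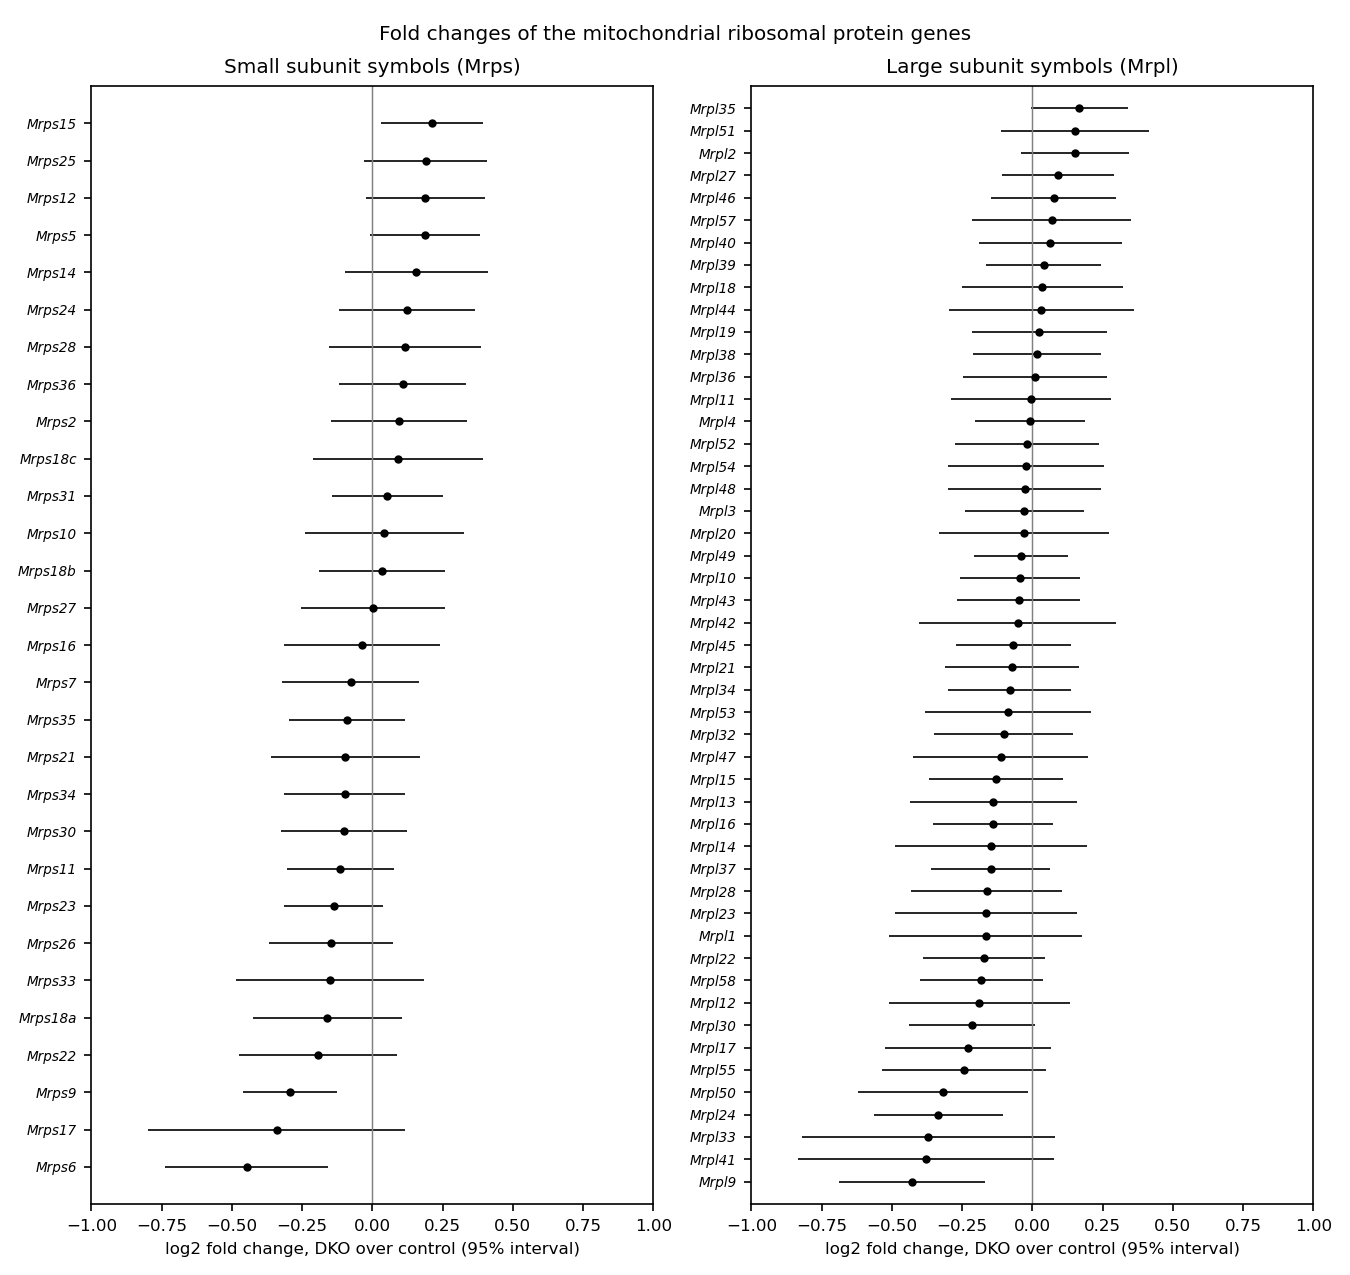
Log2 fold change of DKO over control for each member (points) with its 95% interval (bars), small subunit symbols on the left and large subunit symbols on the right, ordered within each panel. Estimates range between -0.45 for Mrps6 and 0.21 for Mrps15, and 6 of the 78 intervals leave out 0.

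The smallest adjusted p belonged to Mrps9, a small subunit protein with a bacterial homolog (chr1:42851233-42905683, GRCm38). Its level was 73.6, 71.9, 69.3 and 78.2 CPM in DKO mice 1 to 4, against 89.4, 92.8, 86.9 and 89.9 CPM in control mice 1 to 4. The groups did not overlap. This gave a log2 fold change of -0.29 ± 0.08 (SE, n = 4 mice per group, 95% interval -0.46 to -0.13), with an adjusted p of 0.0542 by edgeR's quasi-likelihood test, which misses the threshold.

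Mrpl9, a large subunit protein at the base of the stalk through which tRNAs leave, had 36.1, 36.1, 39.6 and 48.1 CPM in DKO mice 1 to 4, against 52.4, 59.4, 55.2 and 47.9 CPM in control mice 1 to 4. DKO mouse 4 was level with control mouse 4, and the other DKO mice lay below every control mouse. The estimated log2 fold change was -0.43 ± 0.12 (SE, n = 4 per group, 95% interval -0.69 to -0.17; adjusted p = 0.0664 by edgeR's quasi-likelihood test).

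Mrps6, a protein of the small subunit platform, had the lowest log2 fold change of the family and an 8mer seed match. It reached 30.7, 30.6, 34.0 and 39.4 CPM in DKO mice 1 to 4, against 55.9, 40.9, 40.2 and 46.8 CPM in control mice 1 to 4. The groups were separated by less than 1 CPM between DKO mouse 4 and control mouse 3. This difference gave a log2 fold change of -0.45 ± 0.13 (SE, n = 4 per group, 95% interval -0.74 to -0.16; adjusted p = 0.0827 by edgeR's quasi-likelihood test). Of its counted exon bases 18.6% are shared with Slc5a3 on the same strand. The 528 tested genes with an 8mer as best match had a median log2 fold change of 0.05. Any part of the seed match in the level of Mrps6 was not tested.

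Mrpl24, whose bacterial homolog starts the assembly of the large subunit, had 51.6, 47.6, 60.4 and 62.4 CPM in DKO mice 1 to 4, against 70.0, 68.4, 66.0 and 75.6 CPM in control mice 1 to 4. All DKO mice were below all control mice. The log2 fold change was -0.33 ± 0.10 (SE, n = 4 per group, 95% interval -0.57 to -0.10; adjusted p = 0.0988 by edgeR's quasi-likelihood test). The counted exons of Mrpl24 share 37.4% of their bases with Rrnad1 on the opposite strand, and Rrnad1 had a log2 fold change of 0.07.

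Mrpl50, a large subunit protein found in mitochondria only, was the remaining member below an unadjusted p of 0.05 in this direction. It had 43.8, 48.8, 51.2 and 52.3 CPM in DKO mice 1 to 4, against 79.1, 56.5, 49.9 and 58.9 CPM in control mice 1 to 4. Control mouse 1 was far above the others and control mouse 3 lay among the DKO mice. The log2 fold change was -0.32 (95% interval -0.62 to -0.02; adjusted p = 0.223 by edgeR's quasi-likelihood test), and -0.17 without control mouse 1.

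In the opposite direction, Mrps15, whose bacterial homolog is among the first proteins to bind the small ribosomal RNA, had 135, 140.3, 144 and 152 CPM in DKO mice 1 to 4, against 129, 113, 117 and 133 CPM in control mice 1 to 4. The groups did not overlap, although DKO mouse 1 and control mouse 4 were close. The log2 fold change was 0.21 ± 0.08 (SE, n = 4 per group, 95% interval 0.03 to 0.40; adjusted p = 0.177 by edgeR's quasi-likelihood test). The second member without overlap in this direction was Mrps5, which had 53.9 to 59.4 CPM in DKO mice and 44.8 to 53.8 CPM in control mice (log2 fold change 0.19, adjusted p = 0.273 by edgeR's quasi-likelihood test).

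**Figure D3:**
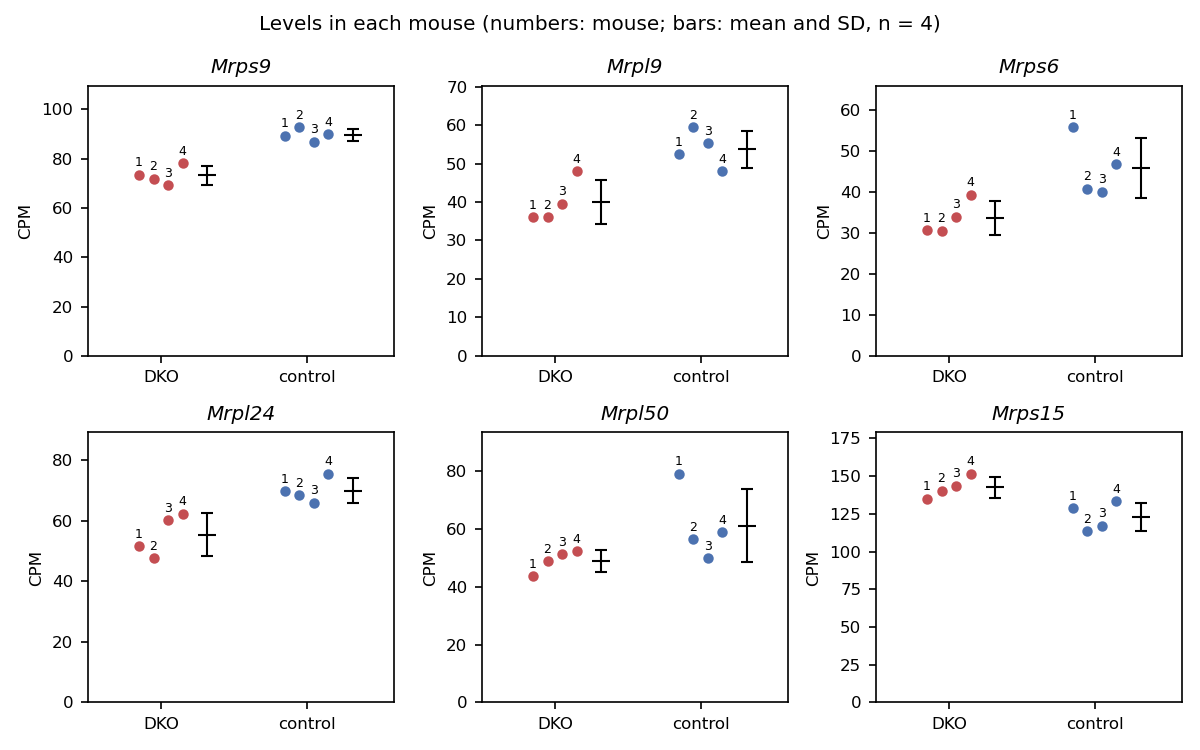
CPM of 6 members in each DKO mouse (red, left) and each control mouse (blue, right), with the mouse number above each point and the mean ± SD beside each group (n = 4). DKO points lie below all control points for Mrps9, Mrps6 and Mrpl24 and above them for Mrps15, while Mrpl9 and Mrpl50 overlap.

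Other settings of the analysis placed some of these members past the threshold, always lower in DKO mice. With DESeq2, Mrps9 (adjusted p = 0.0111), Mrpl9 (adjusted p = 0.0159) and Mrps6 (adjusted p = 0.0311) were lower, 3 of 78 against 4.32% of all genes. The edgeR likelihood ratio test called 2 members, Mrpl9 and Mrps6, against 3.63% of all genes, and limma-voom called 0. Upper quartile normalization called Mrpl9 and Mrps9 (2 of 78, against 2.13%), and scaling by library size alone called Mrps9 (1 of 78, against 2.19%). With the level of Xist, the RNA that marks female cells, as a covariate, edgeR called 5 members, Mrps6, Mrpl9, Mrpl24, Mrps9 and Mrpl50, against 3.98% of all genes. In the mice with Xist above 1 CPM, which were DKO mice 1 and 2 and control mice 2 to 4, it called Mrpl9 and Mrpl24 (2 of 78, against 1.93%). An offset fitted to exon length gave Mrpl9 and Mrps6 (2 of 78, against 2.63%). Mrps9 passed without control mouse 1 (adjusted p = 0.0478, 1 of 78 against 3.09% of all genes), and Mrpl9 passed without DKO mouse 4 (adjusted p = 0.0314, 1 of 78 against 1.17%). Over all 20 alternatives, the adjusted p ranged between 0.0111 and 0.192 for Mrps9, between 0.0159 and 0.188 for Mrpl9, and between 0.00969 and 0.212 for Mrps6.

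Grouped by descent, the members showed small median differences. The 16 small subunit members with a bacterial counterpart had a median log2 fold change of 0.07, with 9 above and 7 below 0. Beside Mrps15 and Mrps5 they include Mrps12, a protein of the decoding centre, which had 112 ± 6.95 CPM in DKO and 98.3 ± 10.7 CPM in control mice (SD, n = 4 each, log2 fold change 0.19, adjusted p = 0.304 by edgeR). The 10 small subunit members without such a counterpart had a median of -0.09, with 4 above and 6 below 0. Mrps25 of this group had 70.7 ± 6.45 CPM in DKO and 62.0 ± 5.69 CPM in control mice (SD, n = 4 each, log2 fold change 0.19, adjusted p = 0.317 by edgeR). Mrps36 was placed in neither group, since its protein is known as a part of the alpha-ketoglutarate dehydrogenase complex, and it had a log2 fold change of 0.11.

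The 29 large subunit members listed with a bacterial counterpart had a median log2 fold change of -0.13, with 6 above and 23 below 0. Mrpl35 was the member of this group with the largest positive value (142 ± 5.50 CPM in DKO, 127 ± 7.81 CPM in control mice, SD, n = 4 each, log2 fold change 0.17). Mrpl30 had 139 ± 7.50 CPM in DKO and 162 ± 22.2 CPM in control mice (SD, n = 4 each, log2 fold change -0.22), and Mrpl55 had 73.9 ± 4.11 CPM in DKO and 87.5 ± 18.1 CPM in control mice (SD, n = 4 each, log2 fold change -0.24). Mrpl12, which recruits translation factors to the stalk and has been described to bind the mitochondrial RNA polymerase, had 147 ± 4.44 CPM in DKO and 167 ± 40.1 CPM in control mice (SD, n = 4 each, log2 fold change -0.19). Mrpl3, which lies near the catalytic centre and holds an 8mer seed match, had a log2 fold change of -0.03, Mrpl19 one of 0.02 and Mrpl1 one of -0.17. The 22 large subunit members listed without a bacterial counterpart, Mrps30 and Mrps18a included, had a median of -0.04, with 7 above and 15 below 0. This list also held Mrpl47 (log2 fold change -0.11), whose protein corresponds to bacterial L29 and which belongs with the other group.

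These medians moved with single mice. Without control mouse 1 the 29 large subunit members listed with a bacterial counterpart had a median of 0.01, with 16 above and 13 below 0. The 22 listed without one had a median of 0.04. Without the same mouse the 16 small subunit members with a bacterial counterpart had a median of 0.14 and the 10 without one a median of -0.02, and without control mouse 2 they had -0.02 and -0.15. The log2 fold changes of Mrpl12, Mrpl30 and Mrpl55 were -0.05, -0.11 and -0.10 without control mouse 1.

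Mrps18a, which sits in the large subunit, had a log2 fold change of -0.16, Mrps18b of the small subunit 0.03, and Mrps18c 0.09, with adjusted p of 0.497, 0.890 and 0.761 by edgeR. Within 10 Mb of Dleu2 lay Mrpl57 (3.77 Mb away, log2 fold change 0.07) and Mrpl52 (7.17 Mb away, log2 fold change -0.02). No member lay within 10 Mb of Smc4, and the nearest was Mrpl24 at 18.9 Mb.

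As a family, the members varied more among the control mice than among the DKO mice. Their summed level was 8785, 9001, 9261 and 9260.3 CPM in DKO mice 1 to 4, against 11464, 8352, 8407 and 9433 CPM in control mice 1 to 4. The DKO mice were close to each other and lay inside the range of the control mice, of which control mouse 1 was the upper end. Control mouse 1 was the highest of the 8 mice for 54 of the 78 members and the lowest for none, while control mouse 2 was the lowest for 28. The median coefficient of variation over the members was 5.65% in DKO mice and 15.1% in control mice, and 8.57% in control mice without mouse 1. The wider spread of control mice was not particular to the family. Nuclear genes for the respiratory chain and ATP synthase summed to 28391 to 37740.4 CPM in control mice and 30319.8 to 32784 CPM in DKO mice. Cytosolic ribosomal protein genes summed to 46603 to 59906 CPM in control mice and 37537 to 40828 CPM in DKO mice.

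Without control mouse 1 the median log2 fold change of the family was 0.03 in place of -0.06, with 47 members above and 31 below 0, and 20 members changed sign. Mrpl41 and Mrpl33 show the weight of this library. Mrpl41 had 110.3, 125, 118 and 119 CPM in DKO mice 1 to 4, against 242, 117, 116 and 139.6 CPM in control mice 1 to 4. Mrpl33 had 160.2, 164, 153 and 160.6 CPM in DKO mice 1 to 4, against 325, 168, 149 and 182 CPM in control mice 1 to 4. In both genes the control mice other than mouse 1 overlapped or neighboured the DKO mice, and the log2 fold changes of -0.38 for Mrpl41 and -0.37 for Mrpl33 became -0.07 and -0.06 without it. Mrps9, Mrpl9 and Mrpl24 kept values of -0.30, -0.44 and -0.34 without control mouse 1, and Mrps6 one of -0.34.

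Transcript length moved with this library. The median exon length was 1095.5 bases in the members and 2850.0 bases in all tested genes, and 56 members belonged to the shortest of 5 length classes of tested genes (1551 bases or less). Over all genes of that class, the median deviation from the gene mean was 0.20 on the log2 scale in control mouse 1 and between -0.09 and 0.05 in the other 7 mice. In the class of the longest genes it was -0.17 in control mouse 1 and -0.16 in DKO mouse 4. Control mouse 1 was also the only control mouse nearly without Xist, at 0.05 CPM. DKO mice 3 and 4 had 0.14 and 0 CPM of Xist, and the remaining mice of both groups had 68.8 to 94.9 CPM. The neutrophil markers were also high in control mouse 1, as they were in control mouse 4 and DKO mice 3 and 4, whose member sums were 9260.3 to 9433 CPM. The part of length and of these cells in the level of the members was not tested beyond the offset on exon length, under which the median log2 fold change was -0.03.

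**Figure D4:**
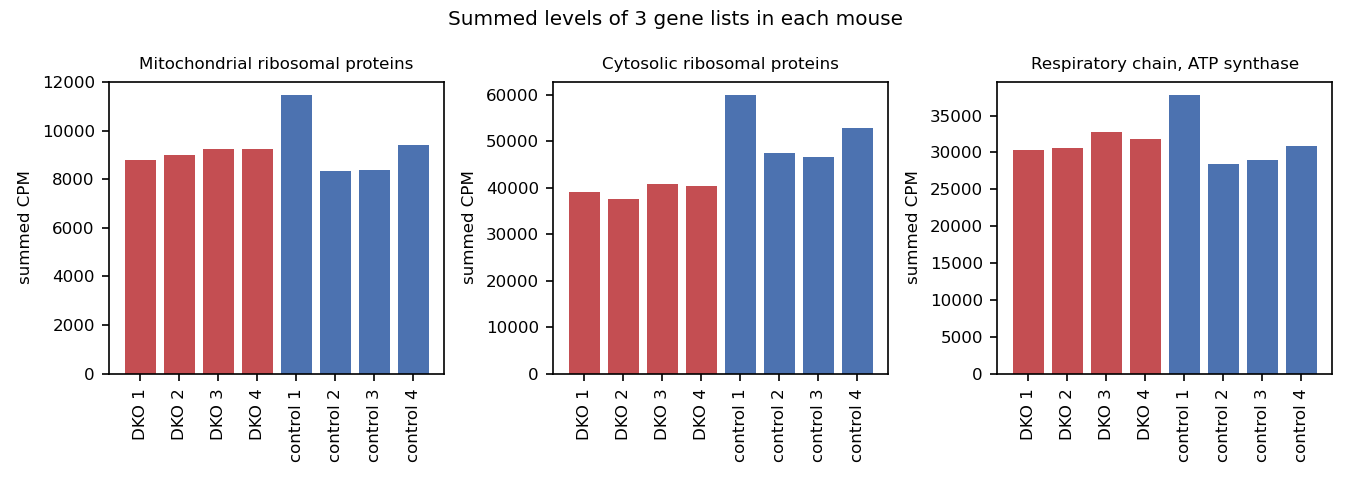
Summed CPM of the 78 mitochondrial ribosomal protein genes, the cytosolic ribosomal protein genes and the nuclear respiratory chain and ATP synthase genes in each DKO mouse (red, left) and each control mouse (blue, right). Control mouse 1 has the highest bar in each panel, and only for the cytosolic list do all 4 DKO bars lie below all 4 control bars.

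The other lists of the mitochondrial translation machinery were also without a gene past the threshold, where 4.58% of all genes passed in either direction. Of 5 subunits with other symbols, 0 were higher and 0 lower, with a median log2 fold change of -0.27, and of -0.06 without control mouse 1. Dap3, a GTP-binding small subunit protein, had 67.8, 62.4, 65.3 and 66.0 CPM in DKO mice 1 to 4, against 88.1, 74.0, 75.8 and 77.1 CPM in control mice 1 to 4, with no overlap (log2 fold change -0.27, adjusted p = 0.0993 by edgeR). Gadd45gip1, a large subunit protein near the exit of the peptide tunnel, had 20.9, 21.04, 64.2 and 68.4 CPM in DKO mice 1 to 4, against 84.7, 54.6, 106 and 79.7 CPM in control mice 1 to 4. DKO mice 1 and 2 were far below all others, whereas DKO mice 3 and 4 lay within the control range (log2 fold change -0.90, adjusted p = 0.217 by edgeR). With the Xist covariate in edgeR both genes were lower in DKO mice (adjusted p = 0.0418 for Dap3 and 0.0296 for Gadd45gip1, against 3.98% of all genes). In mice with Xist above 1 CPM Gadd45gip1 was lower (adjusted p = 0.0107 by edgeR, against 1.93% of all genes). Of the DKO mice that subset kept only mice 1 and 2, those with the low Gadd45gip1 levels. Its call therefore cannot speak for DKO mice 3 and 4, and the Xist covariate separates the same mice.

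None of the 27 assembly factors passed in either direction (median -0.02, and 0.04 without control mouse 1). Eral1, a GTPase that chaperones the small subunit RNA, had 42.0 ± 4.82 CPM in DKO and 32.7 ± 4.04 CPM in control mice, and Rcc1l had 19.6 ± 1.02 CPM in DKO and 15.5 ± 1.05 CPM in control mice (SD, n = 4 each, log2 fold change 0.36 and 0.33, adjusted p = 0.120 and 0.102 by edgeR). With DESeq2, Rcc1l was higher (adjusted p = 0.0487), and the share of all genes higher with DESeq2 is not given here. None of the 15 translation factors passed (median -0.02, and 0.04 without control mouse 1), among them Mrrf, the ribosome recycling factor, with 24.0 ± 4.02 CPM in DKO and 31.5 ± 2.34 CPM in control mice (SD, n = 4 each, adjusted p = 0.104 by edgeR), and Oxa1l, which inserts new proteins into the inner membrane, with a log2 fold change of -0.25. Oxa1l was lower without control mouse 1 (-0.36, adjusted p = 0.0442 by edgeR, against 3.09% of all genes). Mrrf was lower without DKO mouse 4 (-0.51, adjusted p = 0.0368 by edgeR, against 1.17% of all genes). Mrrf was also lower with the Xist covariate (adjusted p = 0.0328 by edgeR, against 3.98%) and the length offset (adjusted p = 0.0477 by edgeR, against 2.63%). None of the 12 genes of mitochondrial DNA maintenance and transcription passed (median -0.12, and -0.03 without control mouse 1). There Top1mt, the mitochondrial topoisomerase, had 5.56 ± 1.98 CPM in DKO and 3.07 ± 0.43 CPM in control mice (SD, n = 4 each, adjusted p = 0.0954 by edgeR), and Mterf2 had a log2 fold change of -0.20. Top1mt was higher with DESeq2 (adjusted p = 0.0245), with the Xist covariate (adjusted p = 0.0231) and in mice with Xist above 1 CPM (adjusted p = 0.0448). The shares of all genes higher in these settings are not given here.

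Of 10 regulators of nuclear genes for mitochondria, 2 were lower in DKO mice (1.93% of all genes) and 0 higher. Ppargc1a, a coactivator of mitochondrial biogenesis, fell to 9.64, 11.9, 7.94 and 8.25 CPM in DKO mice 1 to 4, against 15.03, 20.3, 18.2 and 19.6 CPM in control mice 1 to 4 (log2 fold change -0.96 ± 0.16 SE, adjusted p = 0.00981 by edgeR). Myc, a transcription factor that drives ribosome production, fell to 44.1, 52.4, 30.9 and 33.7 CPM in DKO mice 1 to 4, against 75.6, 77.0, 51.7 and 66.6 CPM in control mice 1 to 4 (log2 fold change -0.75 ± 0.18 SE, adjusted p = 0.0407 by edgeR). The groups were separate for Ppargc1a, and for Myc DKO mouse 2 lay above control mouse 3. Ppargc1a passed whichever mouse was left out. Myc passed without control mouse 3 or DKO mouse 2, and its adjusted p was 0.0572, 0.0881 and 0.0908 without control mice 1, 2 and 4, and 0.0837, 0.118 and 0.0973 without DKO mice 1, 3 and 4.

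The cytosolic ribosomal protein genes, whose products form the ribosomes of the cytosol, stood apart from the mitochondrial family in their counts. Of 86 tested genes with a cytosolic ribosomal protein symbol, 30 were lower (1.93% of all genes) and 0 higher in DKO mice, with a median log2 fold change of -0.39 and 80 genes below 0. They summed to 37537 to 40828 CPM in DKO mice and 46603 to 59906 CPM in control mice. Rps2, which had the smallest p of that list, fell to 469 ± 24.9 CPM in DKO mice, against 769 ± 99.8 CPM in control mice (SD, n = 4 each, log2 fold change -0.71, adjusted p = 0.00493 by edgeR). The count rested on single mice. Without control mouse 1 it was 35 (3.09% of all genes), without control mice 2, 3 and 4 it was 24 (1.21%), 21 (1.29%) and 7 (0.929%), and without DKO mice 1 to 4 it was 7 (0.651%), 7 (0.766%), 6 (0.659%) and 8 (1.17%). Median log2 fold changes of the list stayed between -0.42 and -0.30. The difference between the families was not itself tested.

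Of 78 tested nuclear genes for the respiratory chain and the ATP synthase, 2 were higher (2.65% of all genes) and 0 lower, with a median of -0.02. Without control mouse 1, 5 were higher (3.83% of all genes), Atp5g1, Ndufa4 and Cox8a in addition, and the median was 0.08. The list summed to 30319.8 to 32784 CPM in DKO mice and 28391 to 37740.4 CPM in control mice. The genes that rose were Cox6b2 (78.4 ± 3.88 CPM in DKO, 20.95 ± 4.85 CPM in control mice, adjusted p = 0.000175 by edgeR) and Cox6a2 (13.2 ± 6.37 CPM in DKO, 2.04 ± 0.78 CPM in control mice, adjusted p = 0.00761 by edgeR; SD, n = 4 each). Both encode tissue-restricted forms of cytochrome c oxidase subunits, Cox6b2 known from testis and Cox6a2 from heart and skeletal muscle.

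**Figure D5:**
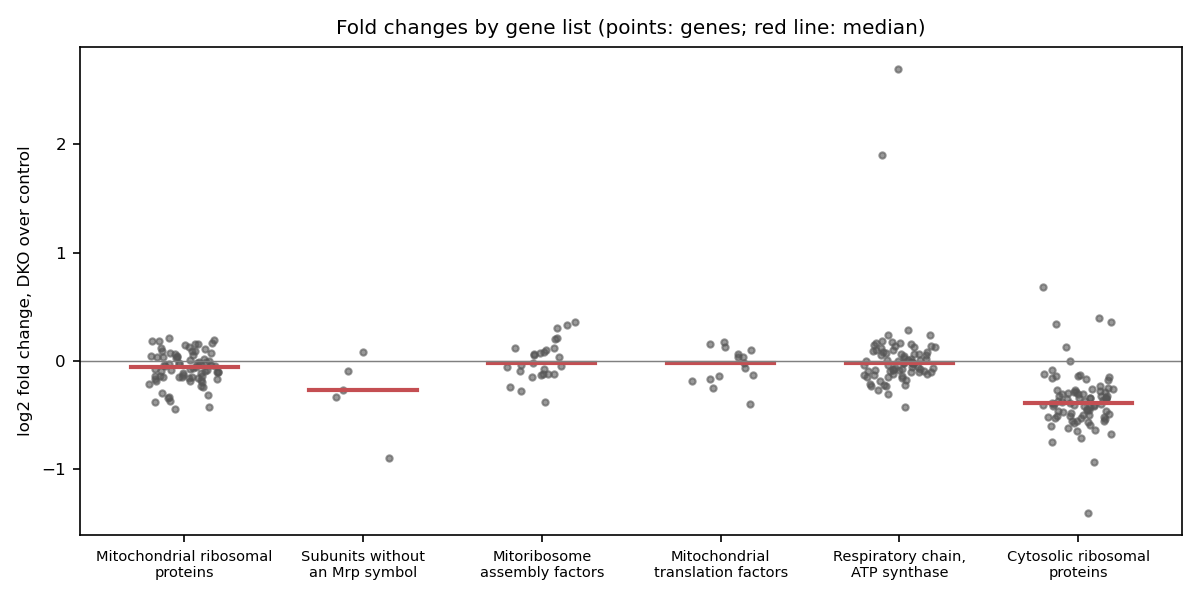
Log2 fold change of DKO over control for the genes (points) of 6 lists, with the median of each list as a red line. The mitochondrial ribosomal proteins center on -0.06 and the cytosolic ribosomal proteins on -0.39, and the 2 high points of the respiratory chain list are Cox6a2 and Cox6b2.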

How the data were processed

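The authors deposited whole-number counts per gene for 8 libraries made with the SMART-seq protocol. Per the labels and the study's methods, Trimmomatic trimmed the reads, STAR aligned them and featureCounts assigned them to genes. Versions and strand setting: not given in the sources used here. GRCm39 is named in the labels, but exon positions in the table are those of GRCm38 (99.6% of 24191 matched genes overlapped their GENCODE M21 position). Counts were tested with edgeR 4.0.16 (quasi-likelihood test, TMM, filterByExpr with a minimum count of 10, R 4.3.3), fitted to all 12714 genes that passed, with genotype as the only term; 7768 genes had no count. Levels are CPM on TMM-scaled library sizes. Alternatives used edgeR's likelihood ratio test, DESeq2 1.42.0 and limma 3.58.1, other scalings, no filter, a replicate block, an Xist covariate and each library left out. The script was tested on simulated data.

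The members and lists were chosen with earlier results of these data known. The named members were those with the 12 smallest p-values, the 4 largest changes in each direction, the 3 highest and 3 lowest levels per exon length, the Mrps18 paralogs, Mrpl12, 8mer carriers and genes near the clusters. In the other lists, genes past the threshold or the 2 with the smallest p were named, but of the cytosolic list Rps2 alone. That list was taken by symbol and includes Rps19bp1, which encodes no ribosomal subunit.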

Additional observations from a re-analysis of the deposited data

How the results depend on the processing

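No member was higher in DKO mice under any of the 20 alternatives. The count of lower members, 0 in the reported analysis, was 2 with the likelihood ratio test, 3 with DESeq2, 2 with upper quartile normalization, 1 with library size alone, 5 with the Xist covariate, 2 with the exon length offset and 2 in mice with Xist above 1 CPM; the last pair of alternatives was chosen after seeing the data. It was 0 with limma-voom, RLE size factors, no filter or no immunoglobulin and hemoglobin genes, and between 0 and 1 when each mouse was left out. The cause of these differences was not tested. With the replicate number as a block it was 0 higher and 0 lower (94 higher and 54 lower over all genes, against 337 and 245). Same-numbered mice did not deviate together (correlations -0.20, 0.05, -0.18 and -0.03), which gave no sign that the numbers pair samples. Such correlations cannot exclude a pairing, because other differences among the mice can hide it. Of 500 fold changes of 25 named members, 459 kept direction and call, 19 passed the threshold and 22 changed sign, in 9 members. Among these, Mrpl19 was -0.0026 with library size alone, Mrps18b -0.0018 with the Xist covariate and -0.032 in mice with Xist above 1 CPM, Mrpl42 0.037 with the length offset and 0.16 in those mice, Mrpl52 0.077 and 0.067, and Mrps21 0.069 in those mice. Leaving out each mouse gave ranges of -0.27 to 0.016 for Mrpl1, -0.053 to 0.096 for Mrpl19, -0.092 to 0.041 for Mrpl3, -0.14 to 0.17 for Mrpl42, -0.072 to 0.099 for Mrpl52, -0.018 to 0.21 for Mrpl57, -0.025 to 0.086 for Mrps18b, -0.0078 to 0.24 for Mrps18c and -0.18 to 0.029 for Mrps21, and -0.11 to 0.03 for the median of the family. At 4 mice per group, changes smaller than the intervals given could not be detected. Larger changes could be missed as well, since the intervals are not adjusted for the number of genes. The 6 members whose intervals leave out 0 also missed the adjusted threshold.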
